A study of Mus musculus with 3 samples.

Results

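The genes described here are 8 genes of antigen presentation on MHC class II, namely *H2-Aa*, *H2-Ab1* and *H2-Eb1*, which encode chains of the class II molecules I-A and I-E, *Cd74*, which encodes the invariant chain, *H2-DMa*, *H2-DMb1* and *H2-Oa*, which encode chains of the peptide-loading molecule H2-M and its regulator H2-O, and *Ciita*, the class II transactivator. Every gene probe of the array with one of these symbols was taken, whatever its values, which gave 16 of 56605 probes and 8 of the 26840 genes with a symbol. The genes themselves were chosen with earlier results of these data known. RNA of RAW 264.7 cells, an established mouse macrophage line transformed by Abelson virus, was hybridised in 1 colour (Cy3) to SurePrint G3 Mouse GE arrays, with 1 array for each of 3 groups, and the comparisons ask how a lactobacillus given beforehand changes the macrophage response to LPS, the ligand of TLR4. The first group received LPS alone at 50 ng/mL, and the others received *L. rhamnosus* CRL1505 or *L. plantarum* CRL1506 for 24 h at 50000000 cells/mL before the same LPS (CRL1505 + LPS and CRL1506 + LPS). All 3 groups received LPS and are the same cell line, plated at 500000 cells per well. The labels give the time with LPS as 12 h in one place and 3 h in another. Non-stimulated cells are not analysed here, and every ratio is between macrophages that had all received LPS.

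A class II molecule is assembled from an alpha and a beta chain around the invariant chain, which fills the peptide groove and carries the complex to endosomes. There, proteases cut the invariant chain down to the CLIP fragment, H2-M exchanges CLIP for antigen peptides, and H2-O, which is known mainly from B cells, restrains H2-M. Transcription of these genes depends on a promoter module of X and Y boxes bound by RFX and NF-Y, on which CIITA acts as coactivator. In macrophages class II genes are low at rest and are induced by interferon-gamma through the kinases JAK1 and JAK2 and through CIITA, while *Cd74* is transcribed at a considerable level without induction.

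With 1 array per group there is no replicate check, so no test or p-value is given, and the number of arrays limits the precision of every ratio. The array of CRL1505 + LPS came from a slide and scan of its own, while the other two arrays shared theirs, so that slide and treatment cannot be told apart for any value of CRL1505 + LPS. On the arrays, from 48.5% (CRL1505 + LPS) to 55.3% (CRL1506 + LPS) of 59305 gene spots were well above background, a flag of the image software for a signal clearly over its local background. All 8 macrophage markers on the array were well above background on each of the arrays, but 3 of them were past 2-fold with CRL1505 + LPS against LPS, with *Csf1r* 2.77-fold lower and *Adgre1* and *Fcgr1* 4.83-fold and 5.28-fold higher. With CRL1506 + LPS, the log2 ratios of these were -0.87, 1.003 and 0.95, and only *Adgre1* passed. Over all genes compared, 9.92% were 2-fold higher and 8.41% lower with CRL1505 + LPS, and 5.67% and 3.52% with CRL1506 + LPS. The part of the macrophage markers in the class II values was not tested. Signals are intensities, and ratios are differences of log2 signal after each array was shifted by its 75th percentile. A gene was counted as higher or lower at 2-fold. The error given after ± is the error that the image software assigns to both signals, combined on the log2 scale, and it covers the spot and not the culture. As a further measure of spread, probes of the same gene differed in their ratio with an SD of 0.23 and 0.21 in the comparisons of CRL1505 + LPS and CRL1506 + LPS with LPS, and of 0.32 between the strains.

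Sequences bear on what the class II probes can show, since mouse class II genes differ between strains. RAW 264.7 cells derive from BALB/c mice, while the reference genome is that of C57BL/6. The only *H2-Aa* probe (A_52_P343306, mm9 chr17:34421285-34421344) starts at base 227 of its transcript, in coding sequence, and an *H2-Ab1* probe (A_55_P2741874, mm9 chr17:34404357-34404416) starts at base 528, also in coding sequence. Both are shown whole because neither was well above background on any array. A further pair of *H2-Ab1* probes (A_55_P1962747 and A_55_P2146560) lies near the end of the transcript and shares 51 bases with 1 substitution, T51C, counted from the 5′ end of the first. For these, the 22 bases around the substitution are shown, with the differing base in capitals. Whether strain sequence affects the brightness of any probe was not tested.
H2-Aa A_52_P343306: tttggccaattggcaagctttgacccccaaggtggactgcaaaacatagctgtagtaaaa
H2-Ab1 A_55_P2741874: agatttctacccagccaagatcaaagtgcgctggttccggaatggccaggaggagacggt
H2-Ab1 A_55_P1962747: aataaacgagacTcagactctg
H2-Ab1 A_55_P2146560: aataaacgagacCcagactctg

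The promoter module was looked for in RefSeq promoters (GRCm38.p6, 250 bases before to 50 bases after each transcription start), which were given for 5 of the 8 genes, with none for *Cd74*, *Ciita* and *H2-Ab1*. The letters CNNGNAAC for the core of the X box and TGATTGG for the Y box were chosen after the promoters of these genes had been looked at. Among 32851 promoters, 39.1% hold the X letters and 7.82% hold the Y letters on either strand, while 0.195% (64 promoters) hold X followed by Y on the strand of the gene with 20 to 60 bases between their starts (0.341% on either strand). *H2-Aa*, *H2-Eb1*, *H2-DMb1* and *H2-Oa* hold the pair, with X starting between -97 and -79 relative to the transcription start and 33 or 34 bases between the starts of X and Y. No such pair is in either promoter window of *H2-DMa*. The bases from -120 to -21 of the 4 promoters are shown to let the shared spacing be seen, with the X and Y letters in capitals, at chr17:34287844-34287943 on the minus strand for *H2-Aa*, and on the plus strand at chr17:34305747-34305846 for *H2-Eb1*, chr17:34153071-34153170 for *H2-DMb1* and chr17:34092259-34092358 for *H2-Oa*.
H2-Aa: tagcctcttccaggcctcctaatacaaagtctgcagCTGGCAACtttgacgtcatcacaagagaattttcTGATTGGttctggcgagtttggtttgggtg
H2-Eb1: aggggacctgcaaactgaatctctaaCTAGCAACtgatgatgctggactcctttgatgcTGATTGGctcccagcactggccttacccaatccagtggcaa
H2-DMb1: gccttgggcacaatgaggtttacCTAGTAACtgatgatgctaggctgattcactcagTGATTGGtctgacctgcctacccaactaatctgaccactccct
H2-Oa: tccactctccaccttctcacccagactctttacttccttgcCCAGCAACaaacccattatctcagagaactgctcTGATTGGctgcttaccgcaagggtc

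A probe well above background was found for 6 of the 8 genes in LPS-treated cells, for 4 with CRL1505 + LPS and for 5 with CRL1506 + LPS. Over all gene spots, 54.5%, 48.5% and 55.3% were well above background on these arrays, which is a share of spots and not of genes. *H2-Aa* and *H2-Eb1* had none on any array. Of the 16 probes, 8 were well above background on at least 1 array and 4 on all arrays, those 4 being probes of *Cd74*, *H2-Oa*, *H2-DMa* and *H2-Ab1*. The promoter module shown above is therefore shared by a pair of genes not measurable here (*H2-Aa*, *H2-Eb1*) and a pair that was (*H2-DMb1*, *H2-Oa*).

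**Figure D1:**
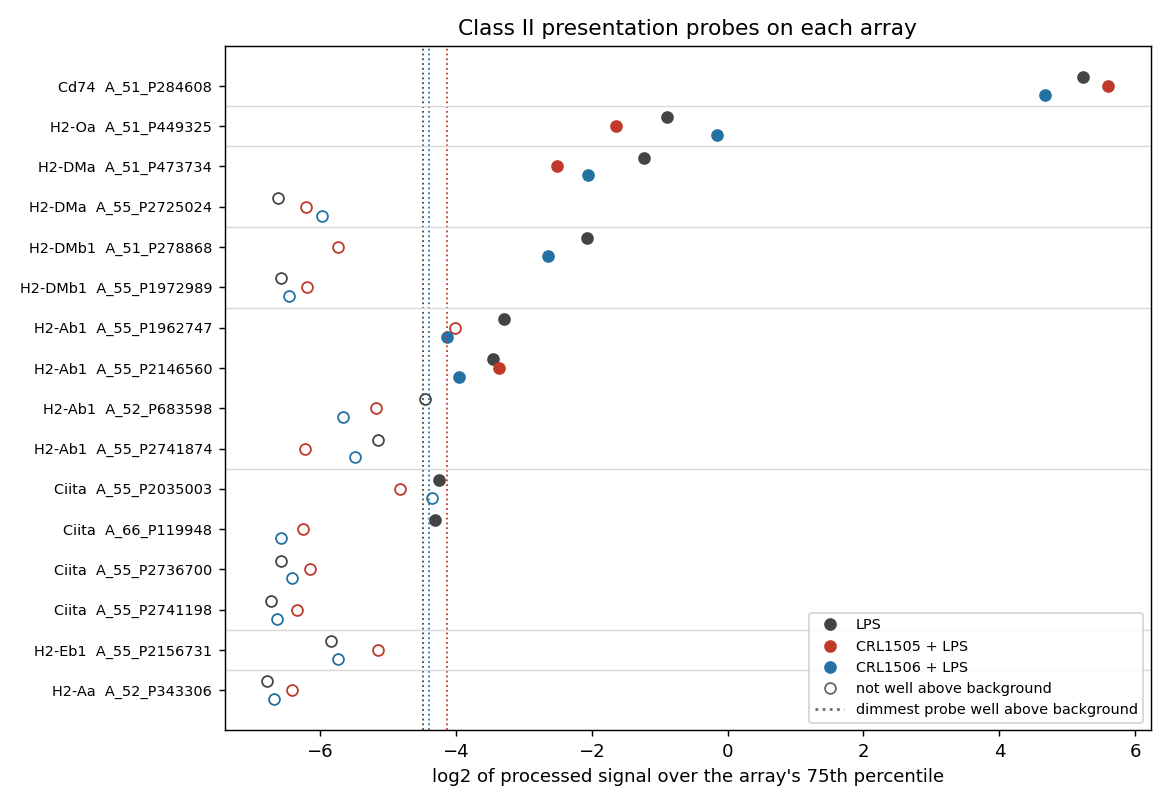
Log2 of the processed signal over the 75th percentile of its array (x axis) for each of the 16 probes of the 8 class II presentation genes (y axis), with 1 array per group, filled points for spots well above background, open points for the others, and dotted lines at the dimmest probe well above background on each array. The *Cd74* probe lies between 4.67 and 5.60 on the 3 arrays, while the probes of *H2-Aa* and *H2-Eb1* lie left of the dotted lines.

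The alpha and beta chain genes of I-A and I-E were dim. *H2-Aa*, which encodes the I-A alpha chain (GRCm38.p6 chr17:34282744-34287823), gave signals of 6.77 with LPS, 6.08 with CRL1505 + LPS and 6.81 with CRL1506 + LPS. *H2-Eb1*, which encodes the I-E beta chain (chr17:34305867-34316674), gave 12.99, 14.69 and 13.14, respectively. The dimmest probes well above background had 33.3, 29.6 and 33.1 on these arrays, so that neither gene has a ratio.

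*H2-Ab1*, which encodes the I-A beta chain (chr17:34263227-34269418), has 4 probes. The probe A_55_P2146560, which was well above background on all arrays and stands for the gene, gave 68.0 with LPS, 50.4 with CRL1505 + LPS and 45.1 with CRL1506 + LPS. Relative to LPS, its log2 ratio was 0.09 ± 0.33 with the CRL1505 strain and -0.50 ± 0.36 with the CRL1506 strain. The sign of the first is not settled, as it ran from -0.41 with scaling to spike-in probes to 0.55 with cyclic loess. The probe A_55_P1962747, which shares all but the end of the same sequence, gave 75.8, 32.2 and 39.8, and was not well above background with CRL1505 + LPS. Its signal was 1.64-fold lower with CRL1505 + LPS, taken from its own signal there, and 1.79-fold lower with CRL1506 + LPS (log2 ratio -0.84 ± 0.38). The overlapping probes thus differ on the CRL1505 + LPS array and have the same sign with CRL1506 + LPS. The remaining pair of probes was well above background on no array, with 34.0, 14.3 and 13.8 for A_52_P683598 and 21.1, 6.97 and 15.6 for A_55_P2741874.

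*Cd74* was bright in all groups, with signals of 27865 with LPS, 25149 with CRL1505 + LPS and 17807 with CRL1506 + LPS. Its probe is the only one for the gene, which lies on chromosome 18. After scaling, the log2 level was lowest with CRL1506 + LPS (4.67) and stood at 5.23 with LPS and 5.60 with CRL1505 + LPS. The log2 ratio to LPS was 0.38 ± 0.20 with the CRL1505 strain and -0.56 ± 0.20 with the CRL1506 strain, and both lie under 2-fold. Across 7 other ways of scaling or background correction the ratio for CRL1506 + LPS kept its sign, between -0.76 and -0.43. For CRL1505 + LPS it kept its sign in 6 and was -0.13 with spike-in scaling. Between the strains, *Cd74* was 1.91-fold higher with CRL1505 + LPS (0.93 ± 0.20), and from 0.55 to 1.43 under the other scalings.

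The H2-M genes were those that passed 2-fold with CRL1505 + LPS. *H2-DMa*, which encodes the alpha chain of H2-M (chr17:34119693-34139101), gave 317 with LPS, 90.5 with CRL1505 + LPS and 168 with CRL1506 + LPS. Its signal was 2.44-fold lower with CRL1505 + LPS (log2 ratio -1.29 ± 0.23) and 1.77-fold lower with CRL1506 + LPS (-0.83 ± 0.22). The first was under 2-fold with shifting by the median (-0.990), normexp correction (-0.86) and the mean over probes (-0.44). The order of the arrays, LPS above CRL1506 + LPS above CRL1505 + LPS, was the same after scaling, but the step between the strains (-0.46 ± 0.24) became 0.035 when the arrays were shifted by their medians. A further *H2-DMa* probe, for a predicted transcript, was well above background on no array (7.61, 6.99 and 11.2).

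*H2-DMb1*, which encodes a beta chain of H2-M (chr17:34153191-34160229), gave 176 with LPS, 9.74 with CRL1505 + LPS and 112 with CRL1506 + LPS on the probe A_51_P278868. The signal with CRL1505 + LPS was not well above background, so only a bound can be given. *H2-DMb1* was at least 4.14-fold lower with CRL1505 + LPS than with LPS, at least 2.81-fold lower than with CRL1506 + LPS, and 1.47-fold lower with CRL1506 + LPS than with LPS (log2 ratio -0.56 ± 0.23). The bounds depend on the processing. Against LPS, the log2 bound of -2.05 became -1.53 in the deposited log2 values and -0.94, under 2-fold, with normexp correction. Between the strains, the log2 bound of -1.49 became -1.01 in the deposited values and fell under 2-fold with shifting by the median (-0.993) and normexp (-0.58). A further probe (A_55_P1972989) was well above background on no array (7.78, 7.07 and 7.95). It matches the RefSeq promoter window of *H2-DMb1* in 58 of 60 bases, from 27 bases before to 33 bases after the transcription start, so part of it lies outside the RefSeq transcript.

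*H2-DMb2*, the neighbouring gene for another H2-M beta chain (chr17:34143229-34151553), has 1 probe, and the pattern there was the opposite one. Its signal was 6.96 with LPS, 391 with CRL1505 + LPS and 7.01 with CRL1506 + LPS, and only the second was well above background. *H2-DMb2* was thus at least 16.9-fold higher with CRL1505 + LPS than with LPS and at least 16.0-fold higher than with CRL1506 + LPS. The log2 bound against LPS was 4.08, and it fell to 2.81 with normexp correction and to 2.84 in the deposited log2 values, with 2.75 and 2.89 between the strains. The longest run of bases that this probe shares with either *H2-DMb1* probe is 6. The value rests on a single spot, whose mean pixel signal exceeded its median by 0.20 on the log2 scale.

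*H2-Oa*, which encodes the alpha chain of H2-O (chr17:34092379-34095234), gave 399 with LPS, 166 with CRL1505 + LPS and 627 with CRL1506 + LPS. The log2 ratio to LPS was -0.74 ± 0.21 with the CRL1505 strain and 0.74 ± 0.21 with the CRL1506 strain, and the strains differed by 2.79-fold (-1.48 ± 0.21). The spot on the CRL1506 + LPS array was uneven, with a mean pixel signal that exceeded the median by 0.40 on the log2 scale, against 0.05 with LPS and 0.14 with CRL1505 + LPS. With the median of the pixels, the ratios to LPS were -0.88 and 0.33, and in the log2 values deposited by the authors they were -0.73 and 0.24. The difference between the strains was under 2-fold in the deposited values (-0.97) and with shifting by the median (-0.98). *H2-Ob*, for the beta chain of H2-O, gave 54.5, 28.3 and 45.4 and was not well above background with CRL1505 + LPS (at most -0.36, against -0.17 for CRL1506 + LPS).

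*Ciita* (chr16:10480014-10531064) was at the limit of detection. Of its 4 probes, A_55_P2035003 and A_66_P119948 were well above background with LPS, with signals of 39.1 and 37.6, and no *Ciita* probe was with either lactobacillus. The first gave 18.2 with CRL1505 + LPS and 34.3 with CRL1506 + LPS, and the second gave 6.81 and 7.37. Both LPS signals lie close to the dimmest signal well above background on that array, so only small differences can be given. With CRL1506 + LPS, *Ciita* was 1.07-fold lower on the first probe, taken from its own signal there. The software errors of that probe's signals were 8.29 with LPS and 8.18 with CRL1506 + LPS, each more than the difference between the signals. On the second probe *Ciita* was at least 1.07-fold lower with CRL1506 + LPS, and no ratio can be given for CRL1505 + LPS. The other pair of probes gave 6.37 to 8.24.

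**Figure D2:**
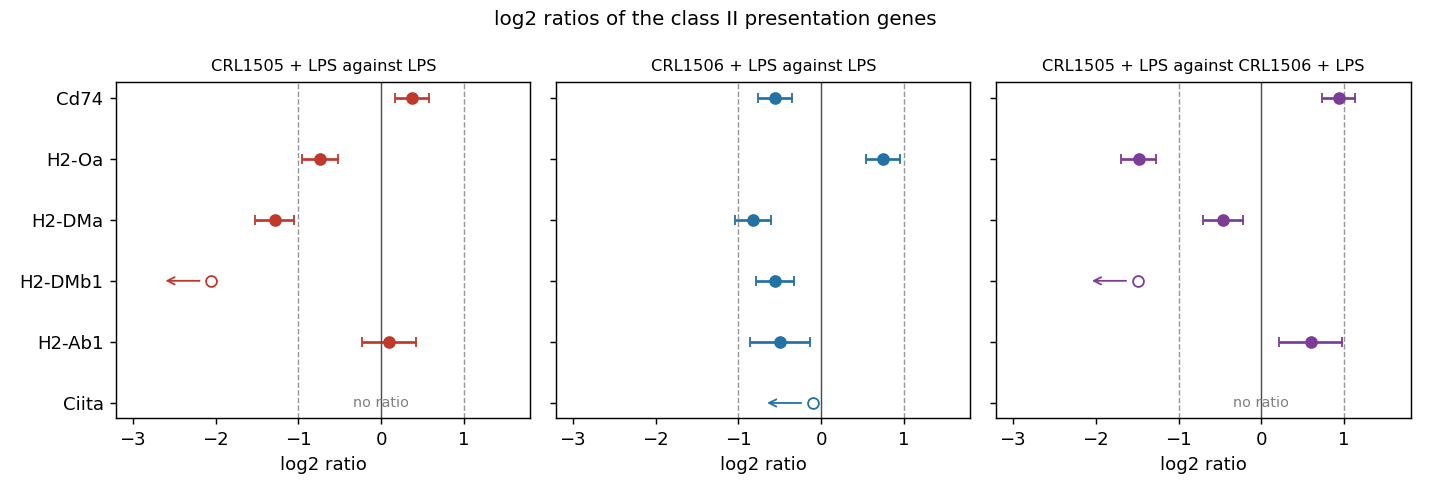
Log2 ratios (x axis) of the class II presentation genes that have a ratio in at least 1 comparison (y axis), for each strain + LPS against LPS and between the strains, with the image software's error as bars and dashed lines at 2-fold. Open points with arrows are ratios with 1 side not well above background. *H2-DMa* and *H2-DMb1* lie left of the 2-fold line for CRL1505 + LPS, and no gene crosses it for CRL1506 + LPS.

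Counted together, 0 genes were higher and 2 were lower (*H2-DMa* and *H2-DMb1*) of the 5 class II genes that could be compared between CRL1505 + LPS and LPS, where 9.92% and 8.41% of 15609 genes were higher and lower. The median log2 ratio of the 5 was -0.74, beside 0.01 for all genes. *H2-DMb1* was not well above background with CRL1505 + LPS. Here and between the strains it therefore could not be counted as higher. With CRL1506 + LPS, 0 of 6 passed 2-fold in either direction, where 5.67% and 3.52% of 16284 genes did, and the median was -0.53 beside -0.06. *Ciita* entered that comparison through the LPS array alone, so its ratio could not be above 0. Between the strains, 0 were higher and 2 lower with CRL1505 + LPS (*H2-DMb1* and *H2-Oa*) of 5, where 9.01% and 7.46% of 15785 genes were, with a median of -0.46 beside 0.03. The comparisons share arrays and are not independent of each other. With so few genes measured, the counts depended on the scaling. For CRL1505 + LPS against LPS, 3 genes were lower with spike-in scaling, where *H2-Oa* was the third (-1.24), 1 with shifting by the median and 0 with normexp background correction. The count was 2 under the other 4 scalings.

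**Figure D3:**
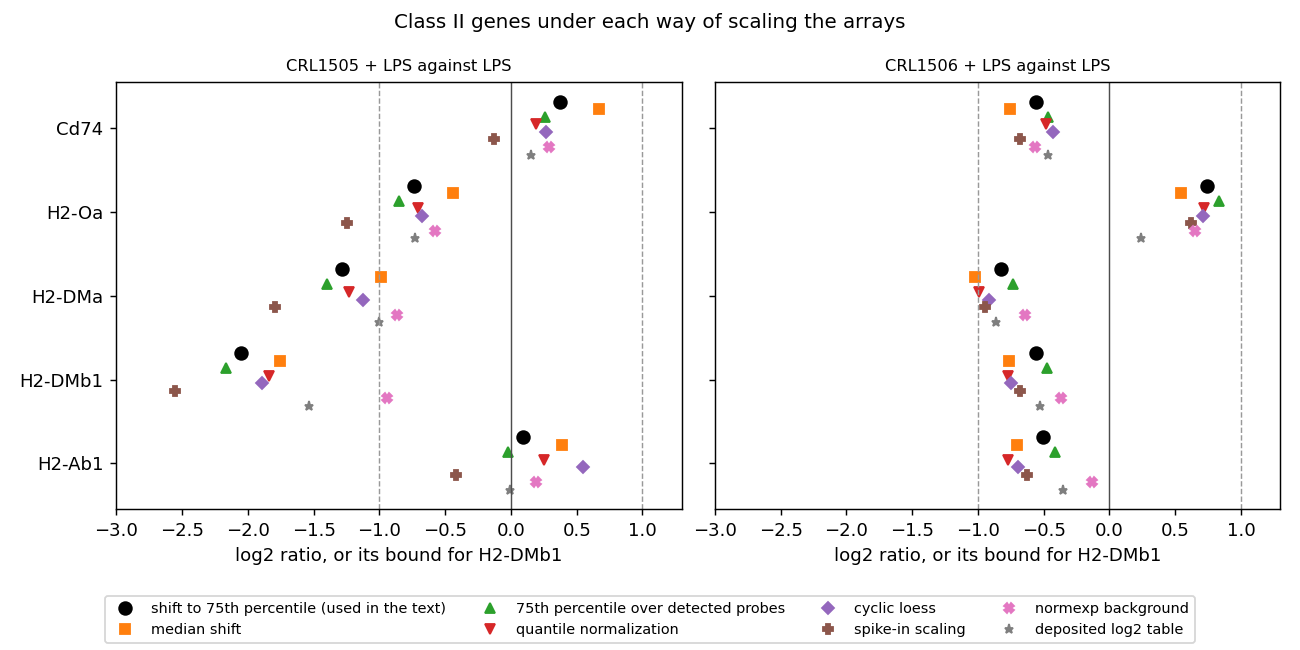
Log2 ratios to LPS (x axis) of the 5 class II presentation genes measured in both comparisons (y axis) under the scaling used in the text and 7 other scalings or background corrections, with a bound for *H2-DMb1* with CRL1505 + LPS, and dashed lines at 2-fold. *H2-DMa* with both strains and *H2-DMb1* with CRL1506 + LPS keep their sign under all settings shown. The sign of the *H2-DMb1* bound with CRL1505 + LPS is fixed by the way bounds are taken. *H2-Ab1* lies on both sides of 0 for CRL1505 + LPS.

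Of the 7 promoter factors (the RFX and NF-Y subunits and *Creb1*), all were well above background on each array. With CRL1505 + LPS 1 was higher and 0 were lower than with LPS (9.92% and 8.41% over all genes), with a median log2 ratio of -0.06. That gene was *Rfx5*, the DNA-binding subunit of RFX, with signals of 52.8 with LPS, 110 with CRL1505 + LPS and 54.4 with CRL1506 + LPS, and its log2 ratio to LPS was 1.59 with CRL1505 + LPS and 0.13 with CRL1506 + LPS. The software error of the *Rfx5* ratio with CRL1505 + LPS was 0.30. *Rfx5* did not pass 2-fold with normexp correction or in the deposited log2 values. A further *Rfx5* probe was well above background on no array (21.7, 21.6 and 18.9). With CRL1506 + LPS, 0 of 7 passed 2-fold (5.67% higher and 3.52% lower over all genes), with a median of -0.31.

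Among the 8 genes reported upstream of *Ciita*, *Ifng* was well above background on no array. Of the other 7, 2 were higher and 0 lower with CRL1505 + LPS (9.92% and 8.41% over all genes), with a median of 0.14. They were *Jak2*, a kinase of the interferon-gamma receptor (2351, 4718 and 3202 with LPS, CRL1505 + LPS and CRL1506 + LPS), and *Socs1*, an inhibitor of JAK signalling (2579, 5219 and 2992). Their log2 ratios to LPS were 1.53 and 1.54 with CRL1505 + LPS and 0.54 and 0.30 with CRL1506 + LPS. With CRL1506 + LPS 0 of 7 passed 2-fold (5.67% higher and 3.52% lower over all genes), with a median of 0.015.

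The 8 genes of endosomal processing were well above background on each array. With CRL1505 + LPS 0 of them passed 2-fold (9.92% higher and 8.41% lower over all genes), with log2 ratios from -0.69 to 0.88. With CRL1506 + LPS 1 was higher (5.67% over all genes), *Sppl2a*, a protease that clears the invariant chain fragment. Its brightest probe gave 2889 with LPS, 2367 with CRL1505 + LPS and 6399.5 with CRL1506 + LPS. After scaling, its log2 ratio to LPS was 0.24 with the CRL1505 strain and 1.24 with the CRL1506 strain. The other 2 *Sppl2a* probes had 1.57 and 1.09 with the CRL1505 strain, the same sign, but -0.14 each with the CRL1506 strain, where the probes thus disagree.

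Of the genes that set the turnover of class II at the surface, *Cd83*, which protects class II from ubiquitination, was lower in both comparisons. It gave 1211 with LPS, 94.8 with CRL1505 + LPS and 138 with CRL1506 + LPS, which is a log2 ratio of -3.15 and -3.05. *March1*, the ubiquitin ligase that removes class II from the surface, gave 829, 613 and 1556, with log2 ratios of 0.09 and 0.999, and *March8*, a related ligase, had 0.46 and 0.09. Both comparisons use the same LPS array, so the low *Cd83* values are not independent of each other.

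Class I molecules present peptides from the cytosol and share little of the endosomal loading machinery described above. All 10 class I genes were well above background on each array. With CRL1505 + LPS, 4 of 10 were higher than with LPS, where 9.92% of all genes were. They were *Tap1* and *Tap2* of the peptide transporter (log2 ratio 1.92 and 1.22), the loading factor *Tapbp* (1.25) and *Nlrc5*, the class I transactivator (3.03). The median of the 10 was 0.81, and from 2 to 7 of them passed 2-fold under the other scalings. With CRL1506 + LPS, *Nlrc5* (1.34) was the only one past 2-fold (5.67% of all genes were higher), and the median was 0.10. A further *Nlrc5* probe had 0.95 with CRL1505 + LPS, under 2-fold, and 1.22 with CRL1506 + LPS. Between the strains the *Nlrc5* probes had opposite signs (1.70 and -0.27). The difference between the pathways was not tested.

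**Figure D4:**
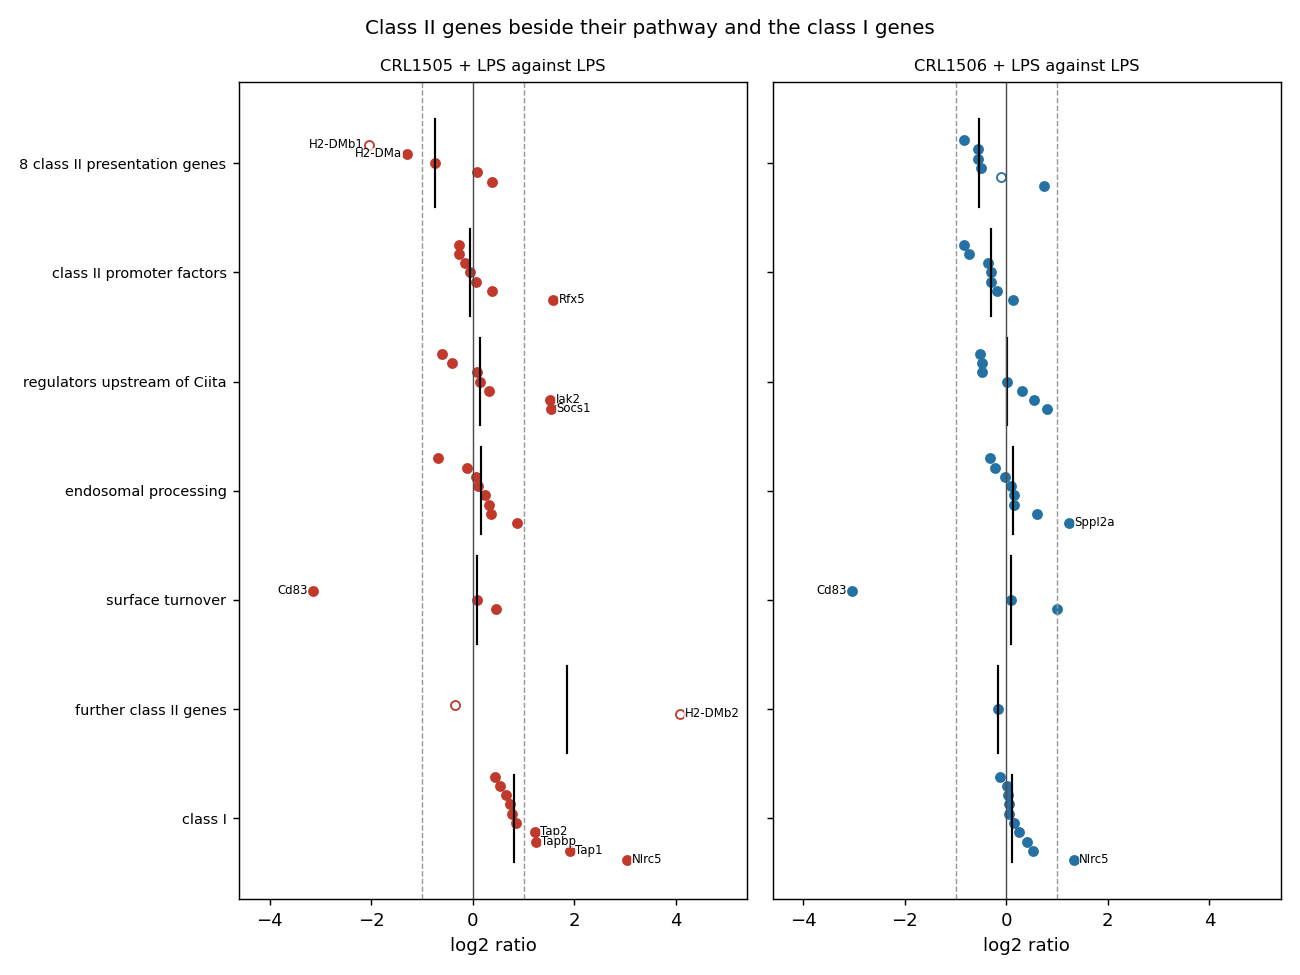
Log2 ratios to LPS (x axis) of the 8 class II presentation genes and of the pathway and class I lists (y axis), 1 point per gene with a ratio, black bars for medians, dashed lines at 2-fold, and names beside genes past 2-fold. Open points are ratios with 1 side not well above background. The class II genes with CRL1505 + LPS reach from -2.05 to 0.38 and the class I genes from 0.43 to 3.03.

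Markers of B cells and dendritic cells, which express class II, and of T cells were read on the same arrays. Of the 4 B cell markers reported, *Cd79a* was well above background on no array. The other 3 gave, with LPS, CRL1505 + LPS and CRL1506 + LPS, 165, 20.6 and 66.7 for *Cd79b*, 87.7, 47.0 and 114 for *Ms4a1*, and 80.2, 34.8 and 63.4 for *Pax5*. *Cd79b* was past 2-fold lower in both comparisons with LPS (at most -1.95, and -1.21). Of 5 dendritic cell markers, 3 were well above background with LPS, and the median log2 ratio to LPS of those compared was 0.35 with the CRL1505 strain and 0.54 with the CRL1506 strain. *Itgax* lay below LPS with both (-0.84 and -1.07), while *Zbtb46* (0.48 and 0.55) and *Siglech* (0.35 and 0.53) lay above, as did *Flt3* with the CRL1506 strain (at least 0.79). Among 4 T cell markers, *Lck* was past 2-fold with the CRL1505 strain (1.46, against 0.52 with the CRL1506 strain). The others did not rise with it, as *Cd3e* had -0.16 and 0.04, *Cd3d* had 0.02 and -0.16, and *Cd3g* was well above background on no array. All samples are the same macrophage line, and some of these markers were bright in it on 1 probe. *Siglech* gave 54126 with LPS, 48079 with CRL1505 + LPS and 73173 with CRL1506 + LPS on its brightest probe. The other probes of *Siglech*, and those of *Zbtb46*, were well above background on no array. *Cd3e* gave 869, 540 and 837 on its brightest probe and 73.4, 67.3 and 68.4 on its other probe. The part of these markers in the class II values was not tested.

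The genes whose ratios to LPS were closest to those of *Cd74*, by Euclidean distance over both ratios, were *Npm3* (0.37 for CRL1505 + LPS and -0.57 for CRL1506 + LPS), *Anxa2* (0.35 and -0.56) and *Kcnk6* (0.37 and -0.53). Within a distance of 0.25 lay 316 of 13124 genes well above background on all arrays. This likeness rests on 2 ratios that share the LPS array and is a description.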

How the data were processed

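The authors deposited, for each array, the processed signal, an intensity that Feature Extraction 12.0.3.1 (per the file headers) gives with background and spatial trends removed and no normalization between arrays, and a table of normalized log2 values, whose settings are not given in the sources used here. From each log2 signal the 75th percentile of its array was subtracted (743.1, 517.0 and 697.9 as signal on the arrays of LPS, CRL1505 + LPS and CRL1506 + LPS). Outlier spots (467, 241 and 274) were left out, and no spot was saturated. A gene was represented by its brightest probe. Where 1 side was not well above background, it was set to the higher of its own value and the dimmest value well above background. This gives a bound where the dimmest value was used, and the measured difference otherwise. Where neither side was well above background, no ratio was taken. The named genes were the 8 class II genes with each probe, every gene of the lists past 2-fold in any comparison, and the 3 genes nearest to *Cd74*. *H2-DMb2*, *H2-Ob*, *March1*, *March8* and the marker genes under 2-fold were named after their values were seen. Some genes of the lists are not reported here. The genes and lists were chosen with earlier results of these data known. R 4.3.3 with limma 3.58.1 was used for normexp (offset 50), quantile and cyclic loess normalization, and Python 3.11.15 with pandas 2.3.3 for the rest. The ratio step was tested on simulated data. Probe positions are on mm9 and gene and promoter positions on GRCm38.p6 (RefSeq).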

Additional observations from a re-analysis of the deposited data

Results flagged for a closer look

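Under the scaling used in the text, *Cd74* had a log2 ratio to LPS of 0.38 with CRL1505 + LPS and -0.56 with CRL1506 + LPS. *H2-Oa* had -0.74 with CRL1505 + LPS and 0.74 with CRL1506 + LPS, so both genes lay on opposite sides of LPS with the strains. With spike-in scaling, however, *Cd74* had -0.13 with CRL1505 + LPS. The *H2-Oa* spot on the CRL1506 + LPS array was uneven, and its ratio was 0.24 in the deposited log2 values. The differences were not tested, since each group has 1 array.

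A pair of spots that the image software marked as outliers, and that were left out, carried signals far above the same probe on the other arrays. The *H2-Ob* probe A_51_P254625 had 3198 on the CRL1506 + LPS array, against 7.32 with LPS and 6.85 with CRL1505 + LPS. The *Erap1* probe A_52_P253015 had 775 on the LPS array, against 17.3 with CRL1505 + LPS and 41.8 with CRL1506 + LPS.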

How the results depend on the processing

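No paired analysis was possible because each group has 1 array. The number of arrays limits every value, and most class II probes were dim. Shifting by the median left 1 class II gene lower with CRL1505 + LPS than with LPS (median log2 ratio -0.44) and 1 lower with CRL1506 + LPS, and between the strains 2 higher and 0 lower (median 0.035). Quantile normalization and cyclic loess gave 1 higher between the strains, and spike-in scaling a median of -0.85. Normexp correction gave 0 lower with CRL1505 + LPS and 1 between the strains, and the deposited log2 values a median of -0.40 and 1 lower between the strains. Without a filter on dim probes the medians were -0.24, -0.30 and -0.095 (CRL1505 + LPS, CRL1506 + LPS and between the strains). With probes well above background on all arrays, 1 was lower with CRL1505 + LPS (median -0.32) and 1 between the strains (median 0.066). The mean over probes gave 0 lower with CRL1505 + LPS, a median of -0.22 with CRL1506 + LPS, and 1 lower between the strains (median -0.12). Leaving out uneven spots, which was chosen after seeing the data like the median of the pixels, gave 1 lower and a median of 0.066 between the strains. At 1.5-fold, 1 was higher and 1 lower with CRL1506 + LPS, and 2 were higher between the strains. At 4-fold, 1 was lower with CRL1505 + LPS and 0 between the strains. The causes were not tested, other than the fewer genes or another threshold that these settings use by construction.

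Some scalings also moved all genes. The median over genes measured on both arrays was 0.06, -0.06 and 0.09 for the comparisons in the same order, but 0.35, -0.26 and 0.58 with shifting by the median and -0.45, -0.19 and -0.30 with spike-in scaling. Of all genes past 2-fold, 54.1%, 61.7% and 54.7% were higher, against 76.1%, 43.5% and 89.0% with shifting by the median and 20.2%, 51.4% and 23.9% with spike-in scaling. With CRL1506 + LPS quantile normalization gave 51.5%, and between the strains cyclic loess gave 66.1%, normexp 69.3% and the 75th percentile over detected probes 36.5%.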
